A study of Mus musculus with 11 samples.

Results

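The replication-dependent histone genes were described in 3 populations of mouse bone marrow cells. They were chosen by symbol from the deposited gene table, as every histone name of the H1, H2A, H2B, H3 and H4 clusters, with names marked as pseudogenes left out. This gave 63 of 54347 rows, of which 5 were H1, 17 H2A, 17 H2B, 12 H3 and 12 H4 genes. In the GENCODE M21 annotation on GRCm38, 53 of them lay on chromosome 13 between positions 21715763 and 23934851, and 10 lay on chromosome 3 between 96219865 and 96270132.

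Histones H2A, H2B, H3 and H4 form the core around which DNA is wrapped, and H1, the linker histone, binds where the DNA enters and leaves that core. The replication-dependent genes supply the histones for newly copied DNA, and their mRNAs are made mainly in S phase. These mRNAs are unusual in having no introns and in ending, in place of a poly(A) tail, in a stem-loop bound by the protein SLBP. Most haematopoietic stem cells rest outside the cell cycle, whereas committed progenitors divide often.

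EMCN+ LT-HSCs gave 4 libraries, EMCN- LT-HSCs gave 3, and granulocyte-monocyte progenitors (GMPs) gave 4, all from 4 female wild-type C57BL/6NTac mice whose age was not given in the sources used here. LT-HSCs, the long-term repopulating stem cells, were gated in lineage-depleted marrow as CD150+ CD48- cells within the Sca-1+ c-kit+ fraction and then split by endomucin (EMCN), a surface sialomucin. GMPs were sorted as a more differentiated population to compare with them. Each library came from 1 mouse, and libraries with the same mouse number came from the same animal, with no EMCN- library for mouse 3, which the submitters removed for poor quality. The series' design text gives 3000 to 5000 sorted cells for the LT-HSC samples. Levels are counts per M (1e6) counts (CPM), scaled with TMM factors, which equalise the bulk of the genes between libraries.

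The libraries matched their labels by markers. The summed level of 7 LT-HSC markers was 903 to 1064 CPM in EMCN+ LT-HSCs, 640 to 749 CPM in EMCN- LT-HSCs and 11.10 to 14.4 CPM in GMPs. For 7 GMP markers it was 22.3 to 27.8, 20.96 to 31.01 and 14916 to 18221 CPM in that order of populations. Libraries held 3.63 to 11.14 M (1e6) estimated counts, of which 18017 to 62071 in EMCN+ LT-HSCs, 25223 to 50604 in EMCN- LT-HSCs and 107797 to 235628 in GMPs fell on the histone genes. A count of 0 leaves room for up to 3 counts, which equal 0.209 to 0.705 CPM depending on the library and cover counting error only.

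The stem-loop could be read in the transcript models of 40 of the 63 genes, searched as the letters GGNNCTTTNNAGNNCC on the transcript strand, where N is any base. It was found in 123 of 21888 other protein-coding genes, or 0.562%. It was seen in 3 of 5 H1, 10 of 17 H2A, 9 of 17 H2B, 8 of 12 H3 and 10 of 12 H4 genes. One example of each of the 6 stem-loops found is shown because the stem sets the H4 genes read apart from the other types. The 16 bases of the stem-loop are in capitals with 5 bases on either side, from GENCODE M21 transcripts.
H1f2 (chr13:23739507-23739532, + strand): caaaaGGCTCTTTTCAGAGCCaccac
H2ac20 (chr3:96220413-96220438, - strand): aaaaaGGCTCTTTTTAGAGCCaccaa
H3c6 (chr13:23561898-23561923, - strand): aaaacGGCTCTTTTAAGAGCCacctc
H4c4 (chr13:23581945-23581970, + strand): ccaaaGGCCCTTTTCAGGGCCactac
H4c9 (chr13:22040961-22040986, - strand): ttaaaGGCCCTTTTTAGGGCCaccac
H4c11 (chr13:21735432-21735457, + strand): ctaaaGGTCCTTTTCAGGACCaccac

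The stem-loop of H1f2 was the commonest, in 24 genes of the H1, H2A, H2B and H3 types and in none of the 10 H4 genes read. The form of H4c4 was found in 6 genes and those of H4c9 and H4c11 in 2 genes each, all of them H4. The form of H3c6 was found in 2 H2B and 3 H3 genes, and that of H2ac20 in no other gene. No match in the other 23 models says only that these letters are not in the annotated transcript.

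Upstream of the genes, 50 of the 63 had a promoter in RefSeq (GRCm38.p6), taken as 250 bases before to 50 after the start site and searched on both strands. The motifs were the TATA box (searched as TATAAA), the box CCAAT, the octamer ATTTGCAT and, known from H1 promoters, AAACACA. None of the 4 holds another. TATAAA was present in 60% of the histone promoters and in 15.6% of the 26975 other promoters. CCAAT was present in 88% against 41.0%, in every H1, H2A, H2B and H3 promoter but in 3 of 9 H4 promoters. The octamer was present for 7 of 12 H2B and 6 of 14 H2A genes and in no H1, H3 or H4 promoter, against 1.92% of the other genes. AAACACA was present for 4 of 5 H1, 2 of 14 H2A and 2 of 12 H2B genes and in no H3 or H4 promoter, against 8.21% of the other genes. Promoters of 4 genes are shown as examples, from 150 bases before the start site up to it. Motifs are in capitals on either strand (ATTGG is CCAAT on the opposite strand). The 4 need not be typical of their types. H4c1 has CCAAT, found in 3 of 9 H4 promoters, and H3c2 has TATAAA, found in 4 of 10 H3 promoters. The stretches of H1f2 and H4c1 lack TATAAA, which was present in 4 of 5 H1 and 6 of 9 H4 promoters.
H1f2 (chr13:23738657-23738806, + strand): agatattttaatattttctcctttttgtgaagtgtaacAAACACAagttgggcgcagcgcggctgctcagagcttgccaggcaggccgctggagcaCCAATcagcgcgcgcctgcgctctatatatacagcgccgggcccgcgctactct
H2bc18 (chr3:96269550-96269699, + strand): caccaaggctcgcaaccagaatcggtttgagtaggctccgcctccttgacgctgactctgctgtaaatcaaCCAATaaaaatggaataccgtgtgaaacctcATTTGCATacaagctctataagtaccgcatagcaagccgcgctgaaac
H3c2 (chr13:23752195-23752344, + strand): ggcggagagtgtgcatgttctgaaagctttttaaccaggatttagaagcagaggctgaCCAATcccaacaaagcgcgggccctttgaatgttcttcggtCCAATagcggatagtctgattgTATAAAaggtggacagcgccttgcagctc
H4c1 (chr13:23761250-23761399, - strand): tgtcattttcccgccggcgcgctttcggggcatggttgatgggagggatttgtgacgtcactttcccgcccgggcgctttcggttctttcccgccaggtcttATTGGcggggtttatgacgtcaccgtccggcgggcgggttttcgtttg

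The copies of a type are close to identical, which limits what a count for a single gene means. Between coding sequences of the same length, the median identity was 97.4% in H2A, 97.2% in H2B, 97.5% in H3 and 94.7% in H4 genes. Of the 31-base stretches of a member's transcripts, a median of 37.0% occurred in no other gene, with 14 members under 10% and 5 at 0%. Of those 5, H2ac19 shared 100% of its stretches with the member H2ac18. H2ac18 shared 100% with the gene model Gm20633, H2bc18 and H3c13 with Gm20628, and H3c14 with Gm20634. These Gm models were not among the histone genes chosen, so a value of 0% need not reflect copies of the same type. The H1 genes had a higher median, of 96.1%. H1f4 was the lowest of them at 65.3%, and 24.5% of its stretches also occurred in the H2B gene H2bc6. Reads on that part could count toward either type, which bears on the H1 and H2B sums and shares. How Salmon divided shared reads between copies can therefore set the level of a single H2A, H2B, H3 or H4 gene. Sums over a type depend less on the division between members. They do not cover reads given to the Gm models, if the authors' annotation held these. Such reads would be missing from the H2A, H2B and H3 sums and shares, which was not tested.

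All 63 genes together took 0.523 ± 0.203% of the counts in EMCN+ LT-HSCs (SD, n = 4), 0.781 ± 0.145% in EMCN- LT-HSCs (n = 3) and 2.01 ± 0.635% in GMPs (n = 4). Their summed level was 6085, 4329, 2629 and 3521 CPM in the EMCN+ LT-HSCs of mice 1 to 4. It was 7742, 6383 and 5926 CPM in the EMCN- LT-HSCs of mice 1, 2 and 4, and 17006, 38456, 25762 and 32852 CPM in the GMPs of mice 1 to 4. All 7 LT-HSC libraries lay below all 4 GMP libraries. The LT-HSC fractions overlapped, because the EMCN+ library of mouse 1 stood above the EMCN- library of mouse 4.

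**Figure D1:**
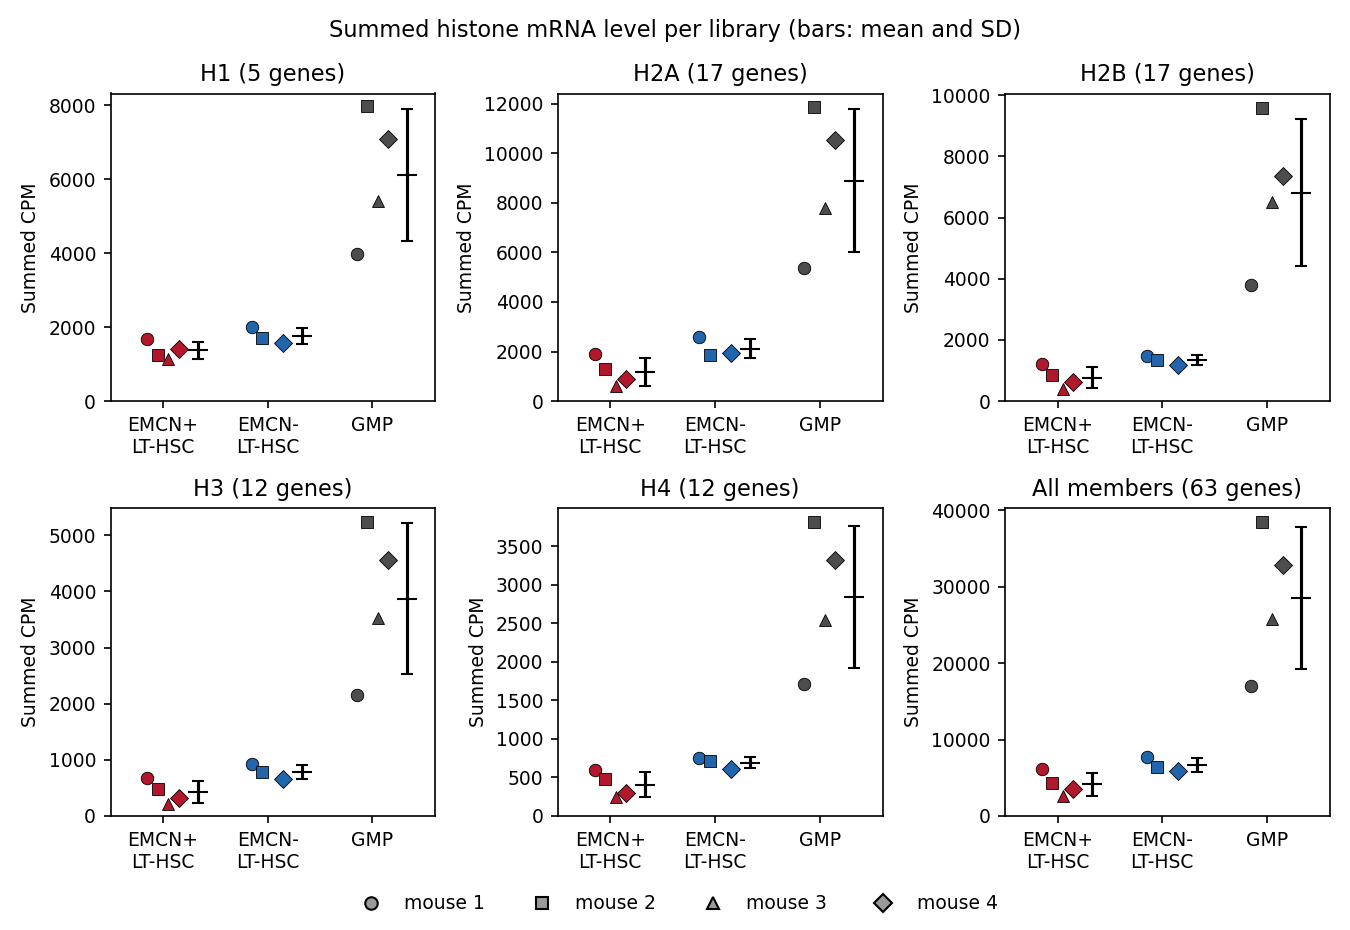
Summed level (CPM with TMM factors, linear axes from 0) of each histone type and of all 63 genes in every library; points are libraries, marked by mouse, and bars give the mean and SD of a population. In each panel all LT-HSC libraries lie below all GMP libraries, and over all genes the GMP library of mouse 1 is the lowest of its group at 17006 CPM.

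The mean summed level was 4141 ± 1470.2 CPM in EMCN+ LT-HSCs, 6684 ± 945 CPM in EMCN- LT-HSCs and 28519 ± 9268 CPM in GMPs. The log2 ratio of these means was -0.69 for EMCN+ over EMCN- LT-HSCs, -2.78 for EMCN+ LT-HSCs over GMPs and -2.09 for EMCN- LT-HSCs over GMPs. These sums are descriptions and were given no test. In such bulk samples, fewer cells in S phase and less histone mRNA per cell cannot be told apart.

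Against GMPs the histone genes were lower in EMCN+ LT-HSCs almost without exception. Of 61 members tested, 58 fell and 0 rose, where 29.4% of all 14915 genes tested were called lower and 31.9% higher (edgeR quasi-likelihood test, Benjamini-Hochberg adjusted over all genes, threshold 0.05). The median log2 change of the 61 was -3.01, beside 0.04 over all genes. The 4 libraries of EMCN+ LT-HSCs lay wholly below the 4 of GMPs for 57 of the 61, which held for 27.7% of all genes. By type, 5 of 5 H1, 15 of 16 H2A, 15 of 17 H2B, 11 of 11 H3 and 12 of 12 H4 genes fell, with median log2 changes of -2.50, -2.97, -3.12, -3.25 and -3.01.

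EMCN- LT-HSCs set against the same GMP libraries also had the histone genes lower. Here 59 of 61 members fell and 0 rose, where 24.4% of all genes were called lower and 28.3% higher. The median log2 change was -2.21, beside 0.03 over all genes, and 57 of 61 did not overlap with GMPs, against 25.8% of all genes. By type the medians were -1.92 for H1, -2.07 for H2A, -2.45 for H2B, -2.30 for H3 and -2.16 for H4 genes. With mouse as a block and the libraries of mice 1, 2 and 4 alone, 30 of 58 members tested were called lower and 0 higher, where 26.2% of all genes were called lower. Of the members named, 9 missed the threshold in that fit, H1f2, H2ac18, Hist1h2ap, H2ac21, H2bc8, H2bc9, H3c6, H3c15 and H4c12, with edgeR adjusted p from 0.0510 for H2bc9 to 0.119 for H3c15. The same block called 58 of 59 in EMCN+ LT-HSCs against GMPs, where 31.3% of all genes were called lower.

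**Figure D2:**
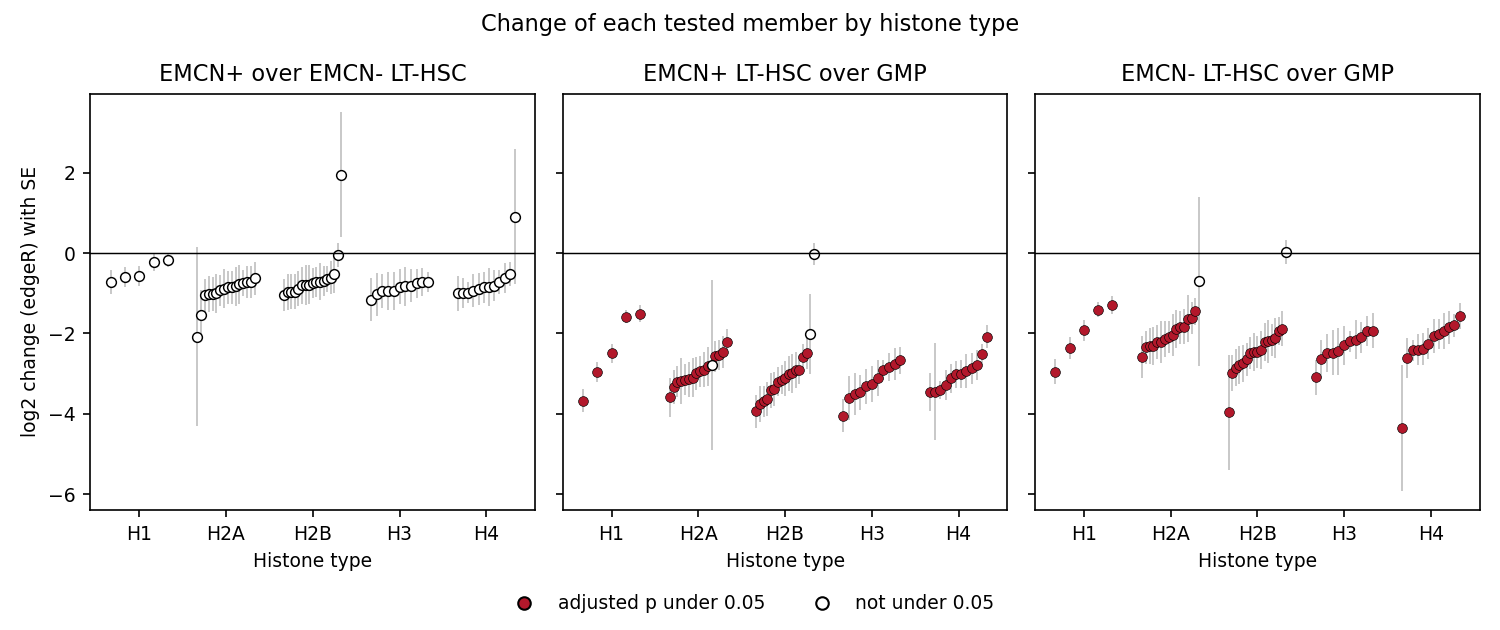
Fitted log2 change with its SE for each of the 61 members tested, by histone type, in EMCN+ over EMCN- LT-HSCs, EMCN+ LT-HSCs over GMPs and EMCN- LT-HSCs over GMPs. Filled points have an adjusted p under 0.05: none in the first panel, 58 in the second and 59 in the third, the last 2 panels sharing their GMP libraries.

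Among the linker histones, the 5 H1 genes fell by unlike amounts. H1f5 was at 99.97, 61.8, 56.6 and 61.4 CPM in EMCN+ LT-HSCs, 131, 100.1 and 115 CPM in EMCN- LT-HSCs and 534, 1179.5, 798 and 1057 CPM in GMPs, each in order of mouse. The log2 change from GMPs was -3.67 ± 0.29 (SE, adjusted p = 2.41e-06) in EMCN+ LT-HSCs and -2.95 ± 0.32 (adjusted p = 3.26e-05) in EMCN- LT-HSCs. Even the highest LT-HSC library lay below every GMP library.

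H1f2 and H1f4 kept more of their GMP level. H1f2 was at 580, 447, 401 and 502 CPM in EMCN+ LT-HSCs, 645, 538 and 500.2 CPM in EMCN- LT-HSCs and 875, 1806, 1203 and 1619 CPM in GMPs. Its log2 change from GMPs was -1.51 ± 0.21 (adjusted p = 7.96e-05) in EMCN+ LT-HSCs and -1.29 ± 0.23 (adjusted p = 6.84e-04) in EMCN- LT-HSCs. For H1f4 the changes were -1.58 ± 0.17 and -1.41 ± 0.19, while H1f3 gave -2.50 ± 0.24 and -1.92 ± 0.26 and H1f1 gave -2.97 ± 0.25 and -2.37 ± 0.27. For each of H1f1, H1f2, H1f3 and H1f4, no LT-HSC library reached the lowest GMP library. Whether these genes differ from each other in their change was not tested.

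H1 genes held a larger share of the histone counts in LT-HSCs than in GMPs. H1 genes held 27.5, 28.9, 43.6 and 39.7% of the histone counts in the EMCN+ LT-HSCs of mice 1 to 4. They held 25.9, 26.7 and 26.3% in EMCN- LT-HSCs and 23.4, 20.7, 20.97 and 21.6% in GMPs. Every LT-HSC library lay above every GMP library, and every EMCN+ library lay above every EMCN- library. H2B genes held 18.03 ± 2.26% in EMCN+ LT-HSCs, 20.0 ± 0.849% in EMCN- LT-HSCs and 23.7 ± 1.58% in GMPs. H3 genes held 9.91 ± 1.42, 11.7 ± 0.565 and 13.5 ± 0.559%, and H4 genes 9.67 ± 1.03, 10.4 ± 0.803 and 9.98 ± 0.124%, in the same order. H2A genes held 27.5 ± 3.64, 31.6 ± 2.34 and 31.2 ± 0.785%. These are shares of counts without a correction for length, so they are compared between libraries only, and no test was made of them.

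**Figure D3:**
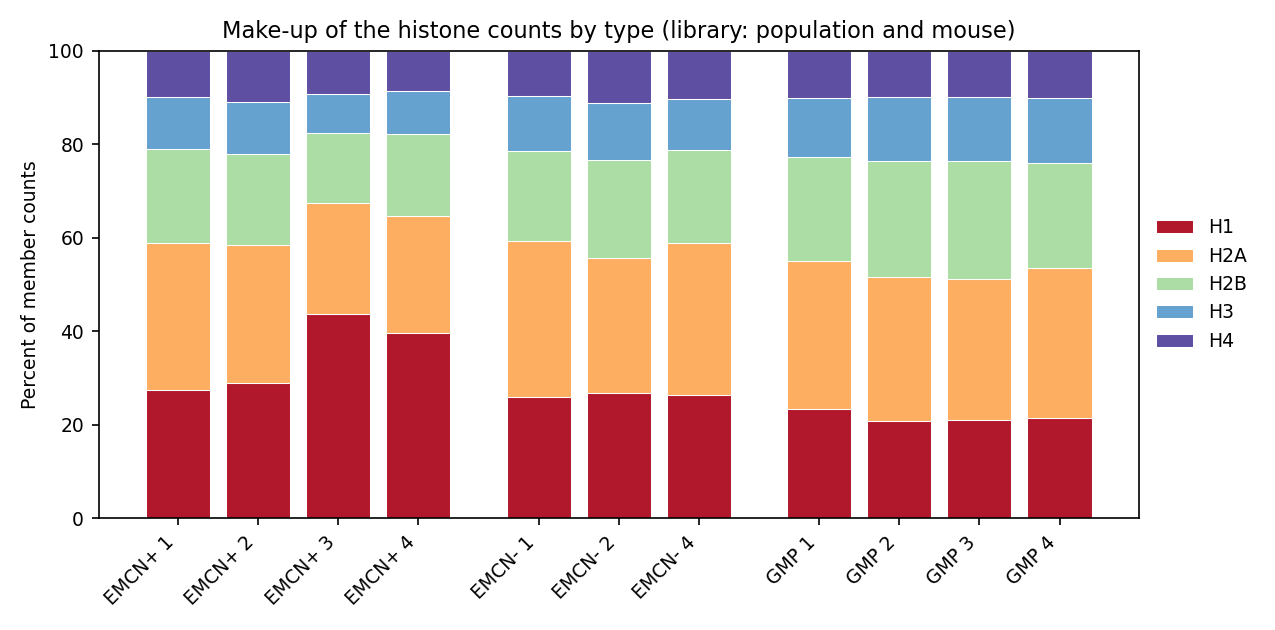
Percent of the counts on the 63 histone genes that fell on each type, with EMCN+ libraries at the left, EMCN- in the middle and GMPs at the right, each bar summing to 100%. The H1 part is between 27.5 and 43.6% in EMCN+ LT-HSCs, 25.9 and 26.7% in EMCN- LT-HSCs and 20.7 and 23.4% in GMPs.

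Among the H2A genes, H2ac19 shares 100% of its 31-base stretches with H2ac18. H2ac18 has none of its own either, sharing 100% with the gene model Gm20633. H2ac19 was listed at 0 in 7 libraries and between 8.74 and 32.3 CPM in the other 4, so the 2 were summed. The sum was 397, 287, 134 and 168 CPM in EMCN+ LT-HSCs, 529, 410.1 and 418 CPM in EMCN- LT-HSCs and 1158, 2649.5, 1708 and 2361 CPM in GMPs. No 2 of the populations overlapped in this sum, with GMPs the highest and EMCN+ LT-HSCs the lowest. For H2ac18 alone the LT-HSC fractions overlapped, at 388 CPM in EMCN+ of mouse 1 and 382 CPM in EMCN- of mouse 2. H2ac19 added 28.6 CPM to the latter.

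H2ac18 alone changed by -3.00 ± 0.41 (adjusted p = 2.01e-04) from GMPs in EMCN+ LT-HSCs and by -2.14 ± 0.44 (adjusted p = 0.00315) in EMCN- LT-HSCs. Hist1h2ap gave -2.95 ± 0.40 and -2.22 ± 0.43, H2ac20 gave -3.34 ± 0.42 and -2.32 ± 0.45, and H2ac21 gave -3.15 ± 0.38 and -2.10 ± 0.40, all called lower. Hist1h2ao, which shares 93.8% of its 31-base stretches with Hist1h2ap, gave -3.18 ± 0.57 and -1.64 ± 0.59 and was also called. Its call in EMCN- LT-HSCs (edgeR adjusted p = 0.0438) was lost under 11 of 21 alternatives, with adjusted p from 0.00169 to 0.217 over them, total-count scaling and 8 of the 11 settings that leave out a library among the 11. In GMPs it was at 54.3 CPM in mouse 2 and 102 CPM in mouse 3, where the near copy was at 2116 and 1373 CPM. H2ac19 was the 1 H2A gene tested that was not called, and H2ac1, which encodes a testis histone, did not pass the filter at no more than 0.933 CPM.

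Among the H2B genes, H2bc9 had the largest change from GMPs in EMCN+ LT-HSCs. It was at 23.3, 17.3, 8.24 and 11.9 CPM in EMCN+ LT-HSCs, 37.3, 28.9 and 23.5 CPM in EMCN- LT-HSCs and 123, 336, 223 and 268 CPM in GMPs. The log2 change was -3.94 ± 0.42 (adjusted p = 3.37e-05) in EMCN+ LT-HSCs and -2.98 ± 0.45 (adjusted p = 4.69e-04) in EMCN- LT-HSCs. H2bc14 gave -3.69 ± 0.39 and -2.64 ± 0.41. H2bc18, which has no 31-base stretch of its own, gave -3.42 ± 0.45 and -2.46 ± 0.48. H2bc3 gave -2.99 ± 0.49 and -2.20 ± 0.53, and H2bc8 gave -2.59 ± 0.32 and -1.95 ± 0.35. All were called lower in both fractions, with no LT-HSC library at the level of a GMP library.

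H2bc21 stood apart, and was picked out after its values were seen. It encodes an H2B known in mice from olfactory neurons, and its annotated transcript of 2620 bases holds no stem-loop of the letters searched. Its level was 7.05, 5.58, 4.79 and 6.06 CPM in EMCN+ LT-HSCs, 6.58, 5.17 and 6.58 CPM in EMCN- LT-HSCs and 5.05, 8.65, 4.55 and 5.60 CPM in GMPs. The 3 groups overlapped throughout. The log2 change from GMPs was -0.03 ± 0.27 (adjusted p = 0.932) in EMCN+ and 0.02 ± 0.30 (adjusted p = 0.956) in EMCN- LT-HSCs, but with total-count scaling it was called higher, at 0.81 (adjusted p = 0.0138) and 0.76 (adjusted p = 0.0365). Of its 31-base stretches, 97.2% occurred in no other gene. H2bc1, which encodes a testis histone, was at no more than 4.78 CPM and was called against GMPs in EMCN- LT-HSCs (edgeR adjusted p = 0.0275) and not in EMCN+ LT-HSCs (adjusted p = 0.0917), with groups that overlapped. Over the 15 alternatives that tested it, the first call was lost in 5, the mouse block in all 11 libraries and the removal of any 1 EMCN- library among them, with adjusted p from 0.00249 to 0.207. In EMCN+ LT-HSCs it passed in 2 of the 15, with adjusted p from 0.0216 to 0.274.

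Among the H3 genes, H3c8 was at 27.6, 17.3, 7.91 and 11.5 CPM in EMCN+ LT-HSCs. It was at 37.5, 30.0 and 27.5 CPM in EMCN- LT-HSCs and 168, 369.5, 267 and 283 CPM in GMPs. Its log2 change from GMPs, -4.05 ± 0.41 (adjusted p = 2.36e-05) in EMCN+ LT-HSCs, was the largest of the 61 there. In EMCN- LT-HSCs it was -3.09 ± 0.44 (adjusted p = 3.19e-04). H3c15 gave -3.61 ± 0.54 and -2.45 ± 0.58, H3c2 gave -3.32 ± 0.44 and -2.49 ± 0.48, H3c1 gave -2.91 ± 0.24 and -2.19 ± 0.26, and H3c6 gave -2.84 ± 0.35 and -2.09 ± 0.38, all called lower in both fractions. H3c14, which has no 31-base stretch of its own, was listed at 0 in all 11 libraries and was not tested.

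Among the H4 genes, H4c4 was at 206, 172, 102 and 115 CPM in EMCN+ LT-HSCs, 234, 210.4 and 194 CPM in EMCN- LT-HSCs and 393, 814, 559 and 757 CPM in GMPs. Its log2 change from GMPs was -2.08 ± 0.29 (adjusted p = 1.67e-04) in EMCN+ LT-HSCs and -1.57 ± 0.32 (adjusted p = 0.00234) in EMCN- LT-HSCs, the smallest of the H4 genes in both. H4c1 was at 17.2, 12.2, 8.13 and 6.84 CPM in EMCN+ LT-HSCs, 24.6, 23.3 and 19.5 CPM in EMCN- LT-HSCs and 98.6, 142, 117 and 128 CPM in GMPs. No library of one population reached the range of another for H4c1. Its log2 change from GMPs was -3.41 ± 0.23 (adjusted p = 3.45e-08) in EMCN+ and -2.43 ± 0.25 (adjusted p = 3.06e-06) in EMCN- LT-HSCs.

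H4c8 gave -2.87 ± 0.39 in EMCN+ and -2.06 ± 0.42 in EMCN- LT-HSCs against GMPs, H4c12 gave -3.01 ± 0.35 and -2.02 ± 0.38, and Hist1h4n gave -3.46 ± 0.46 and -2.61 ± 0.50, all called lower. Hist1h4m, which shares 91.7% of its 31-base stretches with Hist1h4n, was called in both, at adjusted p of 0.0307 and 0.0405 by edgeR, although its groups overlapped. The call was lost in 9 of 21 alternatives in EMCN+ LT-HSCs (adjusted p from 1.65e-04 to 0.0732) and in 8 of 20 in EMCN- LT-HSCs (5.22e-04 to 0.119), total-count scaling, no low-count filter and leaving out single libraries among both. It was listed at 0 in 4 of the 7 LT-HSC libraries. Summed with Hist1h4n it gave 45.3 ± 24.9 CPM in EMCN+ LT-HSCs, 81.7 ± 11.4 CPM in EMCN- LT-HSCs and 504 ± 179 CPM in GMPs.

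**Figure D4:**
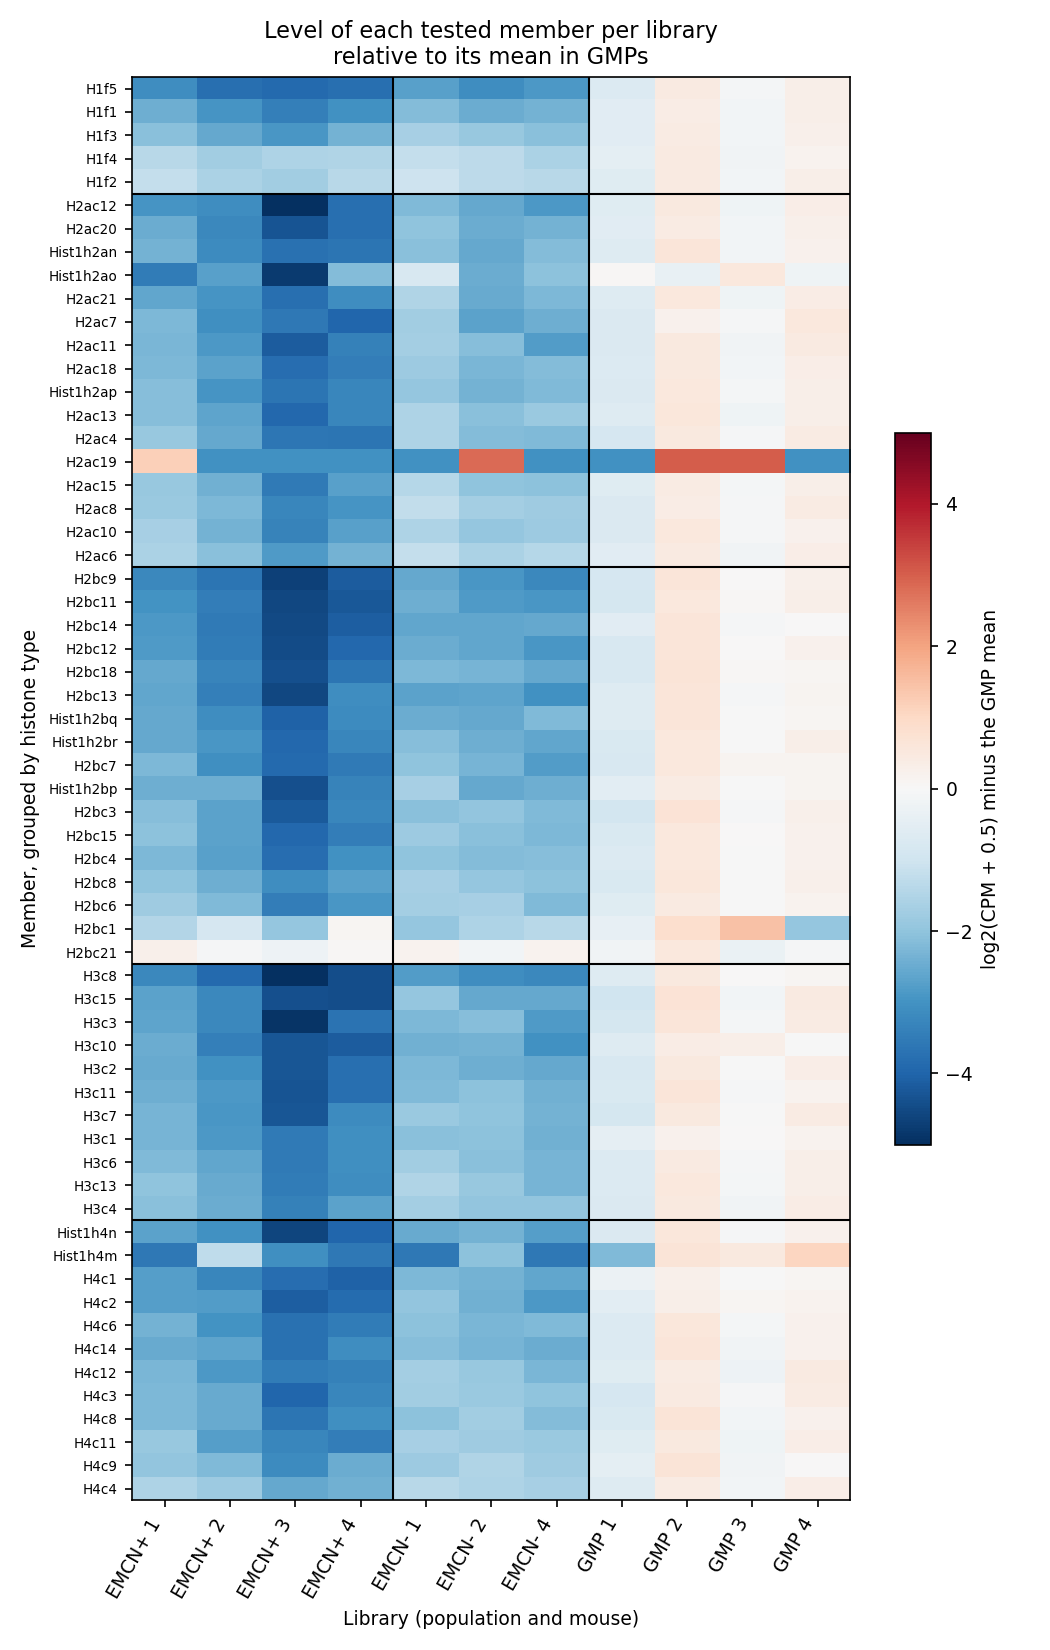
Level of each of the 61 members tested in each library as log2(CPM + 0.5) minus its mean over the 4 GMP libraries, with members grouped by type and, within a type, ordered by the change from GMPs in EMCN+ LT-HSCs. Nearly every row is below its GMP level in all LT-HSC libraries, H2bc21 is near it, and H2ac19, H2bc1 and Hist1h4m are irregular.

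Between the LT-HSC fractions the histone genes pointed one way, but no single gene passed the test. Of the 61 members, 0 were called in EMCN+ over EMCN- LT-HSCs by edgeR, where 1.96% of all genes were, 1.19% lower and 0.771% higher. At an unadjusted p under 0.05, 14 were lower and 0 higher, against 7.92% of all genes lower and 5.99% higher. DESeq2 called 1 member lower, H4c1, or 1.64% of the 61, against 1.66% of all genes. The log2 change was negative for 59 of 61, as for 49.8% of all genes, and its median was -0.82, beside 0 over all genes. Groups did not overlap, with EMCN+ LT-HSCs lower, for 20 of 61, against 6.99% of all genes, and for 0 in the other direction, against 7.25%.

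The 3 mice with both fractions gave the same direction. The summed level in EMCN+ LT-HSCs was 0.786 times that in EMCN- LT-HSCs in mouse 1, 0.678 times in mouse 2 and 0.594 times in mouse 4. Of the 61 members, 53 were lower in the EMCN+ library in all 3 mice, which held for 20.1% of all genes. All 11 H3 genes, 15 of 16 H2A, 11 of 12 H4, 13 of 17 H2B and 3 of 5 H1 genes were among them.

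With mouse as a block and these 6 libraries alone, 35 of 58 members tested were called lower and 0 higher, where 3.93% of all genes were called lower. They were 3 of 5 H1, 8 of 15 H2A, 9 of 16 H2B, 7 of 11 H3 and 8 of 11 H4 genes. Smallest in p was H4c12, at -0.89 ± 0.12 (edgeR adjusted p = 2.28e-04), followed by H2ac11 and H3c13, at -0.66 ± 0.10 each. H4c1 was at -0.93 ± 0.20 (adjusted p = 0.00708), H3c8 at -0.79 ± 0.16 (adjusted p = 0.00574) and H1f5 at -0.66 ± 0.11 (adjusted p = 0.00112), while H1f2, at -0.15 ± 0.09 (adjusted p = 0.400), and H1f4, at -0.18 ± 0.10 (adjusted p = 0.345), missed the threshold there too. With the block in all 11 libraries 0 members were called, where 1.60% of all genes were called lower. The count without a block also rests on 1 library, since 2 members, H4c1 and H3c1, were called lower without the EMCN+ library of mouse 1, or 3.28% of the 61, against 1.52% of all genes.

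**Figure D5:**
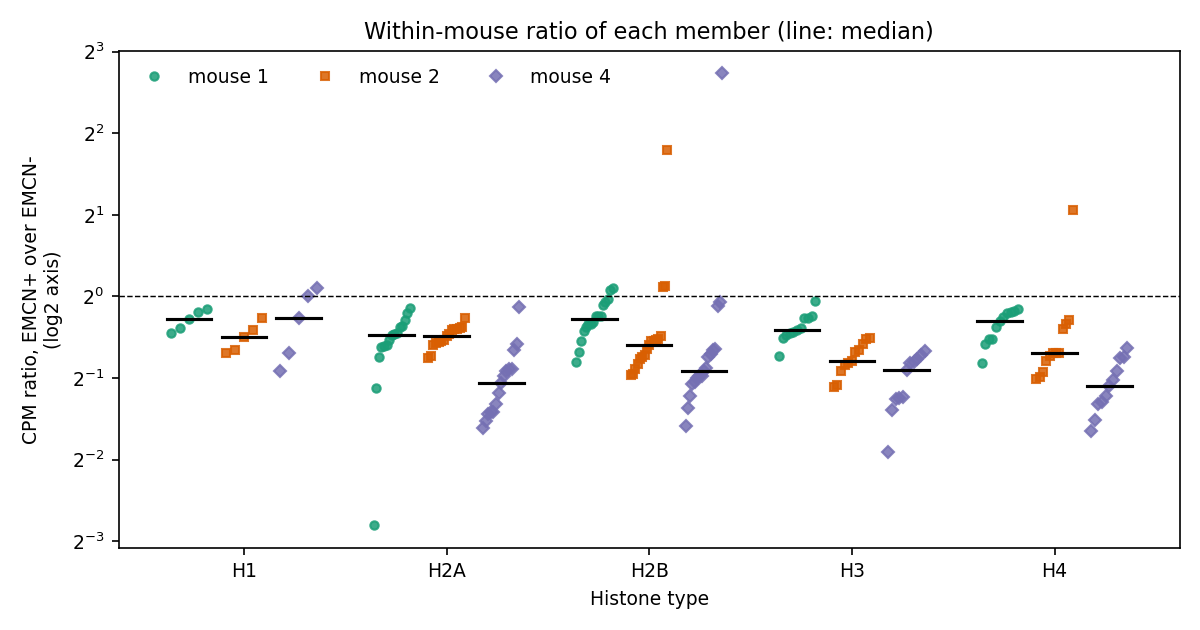
Ratio of CPM in EMCN+ over EMCN- LT-HSCs of the same mouse (log2 axis) for each member above 0 in both libraries, by histone type, for mice 1, 2 and 4; black lines are medians and the dashed line is a ratio of 1. Most points lie below 1 in each mouse, and all 11 H3 genes do so in all 3.

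By type, the median log2 change of EMCN+ over EMCN- LT-HSCs without a block was -0.58 in H1, -0.87 in H2A, -0.73 in H2B, -0.83 in H3 and -0.85 in H4 genes. H4c1 had the smallest adjusted p of all members, at a log2 change of -0.98 ± 0.25 (adjusted p = 0.0793), and every EMCN+ library lay below every EMCN- library. Over 21 alternatives its adjusted p ran from 1.66e-07 to 0.330, under the threshold in 5 of them. H4c12 gave -0.99 ± 0.37 (adjusted p = 0.267), and H3c1 gave -0.72 ± 0.26 (adjusted p = 0.230). In the H2B group, H2bc14 was at 38.3, 24.6, 12.3 and 16.2 CPM in EMCN+ LT-HSCs against 47.4, 47.6 and 48.9 CPM in EMCN- LT-HSCs. Its change was -1.05 ± 0.40 (adjusted p = 0.282), with groups that did not overlap. H2ac21 gave -1.05 ± 0.40 (adjusted p = 0.282), with groups that also did not overlap.

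H1f2 and H1f4 differed least between the fractions among the H1 genes, at -0.22 ± 0.23 (adjusted p = 0.749) and -0.18 ± 0.18 (adjusted p = 0.744). H1f1 gave -0.60 ± 0.25, H1f3 gave -0.58 ± 0.25 and H1f5 gave -0.72 ± 0.29, with adjusted p from 0.305 to 0.331. In mouse 4, H1f2 and H1f4 were the 2 H1 genes not lower in EMCN+ LT-HSCs, H1f2 at 502 against 500.2 CPM and H1f4 at 395 against 368 CPM. Missing the threshold does not show that the fractions were alike.

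Members were also divided by how much of their sequence is their own. The 21 members with at least 50% of their 31-base stretches to themselves had a median log2 change of -0.72 in EMCN+ over EMCN- LT-HSCs, and the other 40 had -0.85. Against GMPs the medians were -2.67 and -3.15 in EMCN+ and -1.94 and -2.31 in EMCN- LT-HSCs. Of the members with a stem-loop in the model, 38 of 39 were called lower against GMPs in EMCN+ LT-HSCs, as were 20 of 22 without one. Of all genes, 29.4% were called lower there. In EMCN- LT-HSCs the counts were 38 of 39 and 21 of 22, where 24.4% of all genes were called lower.

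The genes that make, process and carry histones were set beside them. Of 22 genes for histone mRNA making, such as NPAT, the coactivator of histone transcription, and the processing factors, 1 was lower and 0 higher in EMCN+ over EMCN- LT-HSCs (median -0.13). Against GMPs, 11 fell and 2 rose in EMCN+ LT-HSCs (median -0.36), and 9 fell and 3 rose in EMCN- LT-HSCs (median -0.09). Over all genes tested, 1.19% were called lower and 0.771% higher between the fractions. Against GMPs, 29.4% of all genes were called lower and 31.9% higher in EMCN+ LT-HSCs, and 24.4% lower and 28.3% higher in EMCN- LT-HSCs. The gene of these 22 that was lower between the fractions was Ccne2, a cyclin E that drives CDK2 at the start of S phase. It was at 10.5, 8.02, 6.57 and 6.65 CPM in EMCN+ LT-HSCs, 22.5, 14.4 and 14.6 CPM in EMCN- LT-HSCs and 87.4, 88.6, 77.9 and 76.0 CPM in GMPs, with no overlap between populations. Its log2 change was -1.10 ± 0.19 (adjusted p = 0.00402) between the fractions. Slbp, chosen for its role after its values were seen, gave -0.21 ± 0.13 (adjusted p = 0.515) between the fractions and fell against GMPs, by 0.85 in EMCN+ and by 0.64 in EMCN- LT-HSCs on the log2 scale.

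Of 23 histone chaperone and assembly genes, 0 were called between the fractions (median -0.21). The smallest p were those of Npm1, a nucleolar histone chaperone, at -0.39 ± 0.11 (adjusted p = 0.0680), and Nap1l1, a chaperone of H2A and H2B, at -0.32 ± 0.11 (adjusted p = 0.151). Against GMPs, 13 fell and 2 rose in EMCN+ LT-HSCs, where 29.4% of all genes were called lower and 31.9% higher. In EMCN- LT-HSCs 10 fell and 4 rose, where 24.4% of all genes were called lower and 28.3% higher.

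Of 11 histone genes expressed outside S phase or encoding variants, 3 fell and 0 rose in EMCN+ over EMCN- LT-HSCs (median -0.36). Of all genes, 1.19% were called lower and 0.771% higher there. H2afz, the variant H2A.Z, was at 83.1, 52.4, 70.1 and 68.8 CPM in EMCN+ LT-HSCs, 126, 104 and 111 CPM in EMCN- LT-HSCs and 477, 507, 491 and 491 CPM in GMPs. Its log2 change between the fractions was -0.73 ± 0.13 (adjusted p = 0.00475), with groups that did not overlap. H3f3a, a gene for H3.3, fell by 0.51 ± 0.11 (adjusted p = 0.0148), and H2afj, an H2A variant gene, by 0.52 ± 0.13 (adjusted p = 0.0427), both on the log2 scale. Against GMPs 7 fell and 2 rose in each fraction, with medians of -1.57 in EMCN+ and -1.06 in EMCN- LT-HSCs. Of all genes, 29.4% were called lower and 31.9% higher in EMCN+ LT-HSCs, and 24.4% lower and 28.3% higher in EMCN- LT-HSCs.

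Of 26 genes known for S phase, most of which copy DNA or supply its building blocks and 1 of which, Slbp, is also counted among the 22 above, 1 fell in EMCN+ over EMCN- LT-HSCs, and all 26 log2 changes were negative (median -0.42). The 1 was Tyms, which makes thymidylate, at -0.52 ± 0.13 (adjusted p = 0.0418), with 27.9, 27.1, 24.8 and 29.3 CPM in EMCN+ against 41.0, 35.4 and 40.9 CPM in EMCN- LT-HSCs. Of all genes, 1.19% were called lower between the fractions, and 49.8% had a negative log2 change. Against GMPs, 29.4% of all genes were called lower in EMCN+ LT-HSCs and 24.4% in EMCN- LT-HSCs. Of the S phase genes, 26 of 26 fell in EMCN+ LT-HSCs (median -1.18) and 21 of 26 in EMCN- LT-HSCs (median -0.85). These medians are nearer 0 than those of the histone genes in the same comparisons, a difference that was not tested.

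Other measures of the libraries are given beside the histone level. The summed level of the proliferation markers Mki67, Top2a, Ccnb1 and Cdk1 was 219 to 431 CPM in EMCN+ LT-HSCs, 299 to 460.4 CPM in EMCN- LT-HSCs and 622 to 1059 CPM in GMPs. All 4 fell against GMPs in both fractions and 0 were called between the fractions. Of all genes, 29.4% were called lower against GMPs in EMCN+ and 24.4% in EMCN- LT-HSCs. Erythroid markers, of which 4 of 5 had a row, summed to 1.11 to 2.58, 3.52 to 5.05 and 6.63 to 17.3 CPM in that order. The sum of 5 neutrophil markers was 1.39 to 2.35, 0.705 to 2.58 and 115 to 516 CPM. The 4 B cell markers came to at most 1.19, 1.53 and 4.55 CPM in that order. The 4 endothelial markers summed to 85.6 to 89.8, 70.4 to 86.7 and 63.7 to 79.4 CPM. Of these, Pecam1 was at 46.0 ± 3.88, 48.2 ± 5.13 and 61.0 ± 7.25 CPM, Egfl7 at 32.8 ± 3.65, 27.4 ± 6.60 and 7.26 ± 2.32 CPM and Kdr at 8.11 ± 1.59, 4.56 ± 0.402 and 0.127 ± 0.0855 CPM, while Cdh5 was at most 0.993 and 0.306 CPM in the LT-HSC fractions and 0 in every GMP library. Against GMPs, Pecam1 fell and Egfl7 and Kdr rose in both fractions, and 0 of these 3 were called between the fractions, Cdh5 being too low to test. Mitochondrial ribosomal RNA took 13.9 to 22.1% of the counts in EMCN+ LT-HSCs, 17.3 to 18.7% in EMCN- LT-HSCs and 26.5 to 29.3% in GMPs. Within the EMCN+ libraries it took 15.2, 13.9, 20.9 and 22.1% in mice 1 to 4, the higher shares being in the 2 libraries with the lower histone sums. The part of these in the histone results was not tested.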

How the data were processed

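Sorted cells gave RNA for paired-end sequencing with a stranded SMARTer kit for total RNA of low input, per the labels' protocols. The molecule is labelled polyA RNA, for which this kit does not select. The authors deposited estimated counts for each gene, and the submitters' processing notes name cutadapt and Salmon. Their versions, the build and the annotation are not given in the sources used here. The values are whole numbers and were rounded as a safeguard.

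Groups and mice came from the labels. Genes were filtered by group with filterByExpr (minimum count 10), leaving 14915 genes, or 99.7% of the counts. All 11 libraries were fitted with edgeR 4.0.16 in R 4.3.3 (TMM, robust quasi-likelihood, no block, Benjamini-Hochberg). SEs are the log2 change over the root of F. A gene list is described by counts and a median. Named members were, per type, the 3 with the highest mean CPM and the 2 with the smallest p between LT-HSC fractions, with H4c1, and up to 4 called genes of each context list or 2 where none was called. The members and lists were chosen with earlier results of these data known. Annotation, by Ensembl identifier, was GENCODE M21 on GRCm38, and all 63 members matched. Near-identical copies share reads, so single genes are uncertain.

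Same-numbered libraries come from 1 animal per the labels. Deviations from the group means correlated at 0.165 to 0.223 between the LT-HSC fractions (3 pairs), -0.0606 to 0.0613 between EMCN+ LT-HSCs and GMPs (4 pairs) and 0.105 to 0.150 between EMCN- LT-HSCs and GMPs (3 pairs). For libraries of different mice they were -0.246 to 0.190 (9 pairs), -0.172 to 0.160 (12 pairs) and -0.168 to 0.0622 (9 pairs) in the same order. Alternatives were other scalings, filters and tools (DESeq2 1.42.0, limma-voom 3.58.1), blocks, the 2 groups alone, protein-coding genes alone and each library left out. On simulated data for EMCN+ versus EMCN- LT-HSCs with 200 of 14915 genes changed, 19.4% of 1.5-fold, 49.3% of 2-fold and 71.2% of 4-fold changes were recovered, with 1 false call. Each gene was simulated at its mean level over all 11 libraries, GMPs included, and without a mouse effect. Genes higher in GMPs, most histone genes among them, were thus set above their LT-HSC level, so these shares need not hold for them.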

Additional observations from a re-analysis of the deposited data

Results flagged for a closer look

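H1f5 was the 1 result picked out among 72 gene and group values checked for a library far from the others of its group. In EMCN+ LT-HSCs the library of mouse 1 had 99.97 CPM and the next highest 61.8 CPM, a gap of 0.88 of the group's whole range, past Dixon's limit for 4 libraries. Chance alone passes that limit in about 1 in 20 groups.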

How the results depend on the processing

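The 3 counts of members called and their medians were recomputed under 21 alternatives, and no named member that was called, and no summed level, changed direction. Between the LT-HSC fractions the count of 0 became 3 without a filter on low counts (H1f1, H4c1 and H3c1), 1 with DESeq2 and 1 with protein-coding genes alone (H4c1 in both), where 0.885%, 1.66% and 2.32% of all genes were called lower, and 35 with the replicate block in complete pairs and 0 with the replicate block in all 11 libraries. Leaving out 1 library gave 0 to 2, the 2 without the EMCN+ library of mouse 1. For EMCN- LT-HSCs against GMPs the replicate block in complete pairs gave 30 in place of 59, and leaving out 1 library gave 56 to 59, with 57 to 58 in EMCN+ LT-HSCs, each of 60 or 61 tested. The block changed no other count by over 1.5 times; the cause of these moves was not tested, beyond fewer libraries. Total-count scaling moved the median of all genes to 0.11, 0.86 and 0.75 in the 3 comparisons. It gave medians of -2.17 and -1.48 for the members in EMCN+ and EMCN- LT-HSCs over GMPs, log2 ratios of summed levels of -1.94 and -1.36, and 57 and 52 members called lower with 1 higher each, H2bc21, where 12.6% and 9.88% of all genes were called lower. Between the fractions that scaling made 23.7% of all calls lower, against 60.8% with TMM factors, and against GMPs 17.3% and 15.2% in place of 48.0% and 46.3%. Over all named members and alternatives, 21 values between the fractions passed the threshold and 20 in EMCN- LT-HSCs over GMPs no longer did. Levels near 3 counts, such as those of H2ac1 and, in most LT-HSC libraries, of H2bc1 and Hist1h4m, are limited by depth. Other libraries held more, Hist1h4m up to 66 counts in the GMPs of mouse 4 and H2bc1 up to 21 in those of mouse 3.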
